A study of Zea mays with 6 samples.

Results

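DNase I hypersensitive sites (DHSs) that lie far from any other DHS, are short, and appear in both tissues were taken from the DNase-seq lists of maize line B73. The first tissue was the inner stem of greenhouse-grown V2 seedlings (V2-IST), stripped of its outer foliage. It was set against inner husk, taken from ears at silk emergence before pollination. V2-IST had 2 libraries from 2 biological replicates and husk had 3 libraries from 2 biological replicates, each from several pooled plants. A library of DNase I-treated naked DNA from husk served as the control for peak calling, and no list of its own was used. The authors deposited 1 integrated list per tissue, 18485 DHSs for V2-IST and 15261 for husk, which give only the position of each DHS.

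The pairs were chosen by their measured coordinates. DHSs of different tissues formed a pair when they overlapped each other by at least 1 bp and overlapped nothing else, which gave 11584 one-to-one pairs. A pair was retained when both DHSs were under 1000 bp, the wider was less than 1.5 times the narrower, starts and ends differed by more than 30 bp in sum, and no other DHS of either tissue lay within 50 kb. This left 1188 isolated pairs, 10.3% of the one-to-one pairs, with 6.43% of the DHSs in V2-IST and 7.78% of those in husk. They were compared with the 4302 pairs that met the same limits on width and boundaries but had another DHS within 50 kb, named clustered compact pairs here. Presence in both tissues, small width, similar width, the least difference between boundaries and isolation were fixed by this choice and are given as descriptions only.

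DNase I cuts DNA where nucleosomes are sparse, so a DHS marks a stretch of open chromatin. Such stretches are typical of promoters just upstream of transcribed genes and of enhancers, which are bound by transcription factors and can lie far from the gene they regulate. Maize genes are often separated by long blocks of transposable elements, most of which are methylated and closed. A short open site with no other for a long way around can therefore be the promoter of a lone gene, a distal regulatory sequence, or open chromatin of another kind. Which of these applied to each pair was not analysed here, since a genome sequence and gene annotation of the build were not used.

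No spread between replicates can be given, because the lists hold neither scores nor values of single replicates. Values therefore have no SD, and differences between tissues describe 2 lists without a test. Intervals are at the 95% level and cover counting error over pairs, which treats neighbouring pairs as independent. The read depth behind each DHS is unknown from the lists. The study reports unequal numbers of reads and peaks between libraries, and widths were not adjusted for them. The lists also hold no gene values, so the tissue labels could not be checked against marker genes. Open in 1 tissue only means here that a DHS was listed for that tissue only. Peaks of 1 replicate alone are absent from a list, so the other tissue can have an unlisted peak there. Reads without a unique position in the genome were removed. The study reports that this kept enhancers in repetitive regions from being identified. A stretch without a listed DHS can therefore be unmappable as well as closed, and which applied was not tested. Coordinates are 1-based on assembly AGPv4.

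Pairs just inside and just outside each limit differed little in the measure that separated them. The pair nearest inside the distance limit, on chromosome 5 from 209886519 to 209887129 in V2-IST, had its closest neighbour 50.003 kb away, and the pair nearest outside, on chromosome 8 from 149387186 to 149387674, had it 49.8 kb away. At the width limit, the widest DHS inside measured 999 bp (chromosome 6, from 34058064 in V2-IST) and the first outside 1000 bp (chromosome 1, from 220305871). At the boundary limit, a pair on chromosome 1 from 55053639 differed by 31 bp in sum and was retained, and a pair on the same chromosome from 20033679 differed by 30 bp and was not. The ratio limit separated a pair of 405 bp in V2-IST against 607 bp in husk (chromosome 2, from 30548425) from one of 435 bp in V2-IST against 290 bp in husk (chromosome 2, from 19014532). Of 2343 isolated one-to-one pairs of any shape, 442 were left out for a width, 405 further pairs for the width ratio and 308 for nearly the same boundaries.

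The most isolated pair was on chromosome 1, where the V2-IST DHS ran from 131513656 to 131513960 (305 bp) and the husk DHS from 131513666 to 131513880 (215 bp). No other DHS stood in either list for 3712 kb to its left and 1528 kb to its right. The starts differed by 10 bp and the ends by 80 bp, so the extra width in V2-IST lay almost entirely on one side. A similar one-sided pair was the most isolated on chromosome 2, from 99695299 to 99695691 in V2-IST (393 bp) and from 99695300 to 99695623 in husk (324 bp), with starts 1 bp apart and its nearest neighbour 646 kb away. On chromosome 6, the V2-IST DHS from 49854223 to 49854597 (375 bp) and the husk DHS from 49854217 to 49854530 (314 bp) again shared a start to within 6 bp and differed by 67 bp at the end, 886 kb from the next DHS.

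On the other chromosomes the extra width of V2-IST was shared between both sides, one-sided, or missing. On chromosome 4, the V2-IST DHS from 113915050 to 113915453 (404 bp) extended past the husk DHS from 113915106 to 113915397 (292 bp) by 56 bp at each end, with the nearest neighbour at 688 kb. On chromosome 3, the V2-IST DHS from 95099307 to 95099487 measured 181 bp and the husk DHS inside it 148 bp, with 724 kb to the nearest DHS. The widest of the set was on chromosome 5, with 886 bp in V2-IST from 136089929 to 136090814 and 775 bp in husk from 136090030 to 136090804. Its right ends lay 10 bp apart and its left ends 101 bp. Here too the extra width was mostly on one side. On chromosome 7, the V2-IST DHS from 139018417 to 139018891 (475 bp) covered the husk DHS of 437 bp with 25 and 13 bp to spare. On chromosome 9, a V2-IST DHS from 40107956 to 40108575 (620 bp) covered a husk DHS of 548 bp, and on chromosome 10 a V2-IST DHS from 30086668 to 30087126 (459 bp) covered a husk DHS of 401 bp. Chromosome 8 was the exception: the DHS from 84770616 to 84770913 measured 298 bp in V2-IST against 301 bp in husk, shifted as a whole by 16.5 bp. V2-IST was thus the wider in 9 of these 10 pairs and reached past husk on both sides in 8. These 10 pairs are extremes. Over all isolated pairs the shares were 62.6% and 34.5%, and over all one-to-one pairs 61.4% and 37.4%. The nearest other DHS was open in both tissues for 4 of these 10 pairs, in V2-IST alone for 4 and in husk alone for 2.

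**Figure D1:**
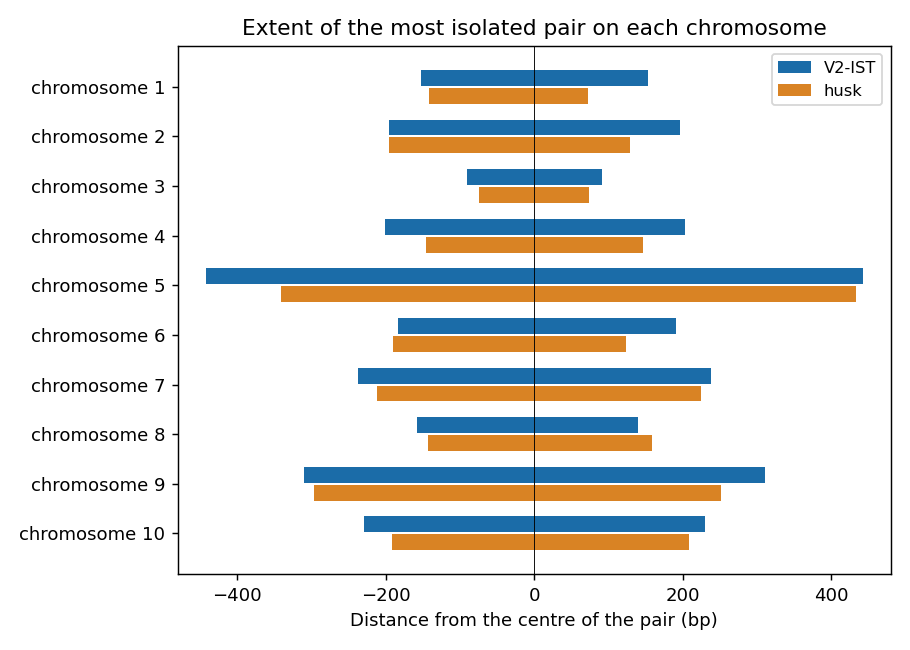
Extent of the most isolated pair on each of the 10 chromosomes, as distance in bp from the centre of the sequence covered by either tissue, with V2-IST (blue) above husk (orange). The V2-IST bar is the longer on every chromosome except chromosome 8, where the bars measure 298 bp in V2-IST against 301 bp in husk.

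Across the 1188 isolated pairs, the median width was 396 bp in V2-IST (order-statistic interval 384 to 406 bp), against 376 bp in husk (365 to 388 bp). Quartiles stood at 303 and 537 bp in V2-IST, against 286 and 518 bp in husk. Clustered compact pairs were wider, with a median of 455 bp in V2-IST (447 to 464 bp), against 446 bp in husk (439 to 455 bp), although both sets had the same upper limit. The difference lay at both ends of the range. Both DHSs were under 300 bp in 17.9% of isolated pairs and 11.3% of clustered pairs (10.4% of all one-to-one pairs), a difference of 6.61 percentage points (Newcombe interval 4.31 to 9.07), with the isolated pairs higher on 10 of 10 chromosomes. Both measured at least 500 bp in 23.5% of isolated pairs and 34.8% of clustered pairs (40.3% of all one-to-one pairs; difference -11.3 points, -14.04 to -8.45), with the isolated pairs lower on each chromosome. The narrowest isolated pair measured 134 bp in V2-IST against 179 bp in husk (chromosome 6, from 119332051 in V2-IST). It was followed by pairs of 139 bp in V2-IST against 176 bp in husk (chromosome 4, from 28147810) and of 182 bp in V2-IST against 140 bp in husk (chromosome 8, from 4182030). At the other end stood pairs of 976 bp in V2-IST against 992 bp in husk (chromosome 2, from 120615591), of 999 bp in V2-IST against 956 bp in husk (chromosome 6, from 34058064) and of 933 bp in V2-IST against 995 bp in husk (chromosome 8, from 82534331).

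**Figure D2:**
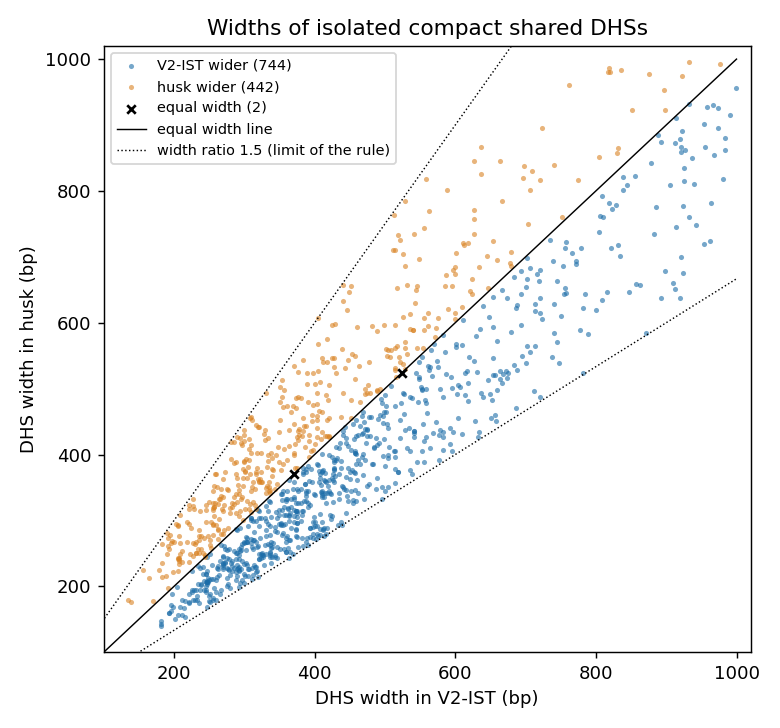
Width of the V2-IST DHS (horizontal axis, bp) against width of the husk DHS (vertical axis, bp) for each of the 1188 isolated pairs, coloured by the wider tissue, with the line of equal width and the ratio limit of 1.5. Most points lie below the line of equal width, 744 wider in V2-IST against 442 wider in husk. Pairs whose boundaries differed by 30 bp or less in sum are not plotted.

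The DHS was the wider in V2-IST in 744 of the 1188 isolated pairs (62.6%, Wilson interval 59.8% to 65.3%) and in husk in 442 (37.2%), while 2 pairs had equal widths. Over all 11584 one-to-one pairs these shares were 61.4% and 38.1%, so the isolated pairs were close to the background of the series. Clustered compact pairs were less often wider in V2-IST, in 2415 of 4302 (56.1%, 54.6% to 57.6%). The difference between isolated and clustered compact pairs was 6.49 points (Newcombe interval 3.33 to 9.58). V2-IST was the wider in most isolated pairs on all 10 chromosomes, from 58.04% on chromosome 4 to 72.4% on chromosome 7. The share was above that of clustered compact pairs on 8 chromosomes, and not on chromosomes 4 and 10. The median width difference, V2-IST minus husk, was 34 bp in isolated pairs (31 to 37 bp) and 23 bp in clustered compact pairs (17 to 27 bp). Its size depends on the limit that removed nearly identical pairs: without that limit the median was 16 bp in isolated pairs.

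The comparison was repeated by width, since isolated pairs were narrower. With a mean width under 300 bp, V2-IST was the wider in 65.5% of isolated pairs and 61.8% of clustered ones. At 300 to 400 bp the shares were 62.7% and 58.1%, at 400 to 600 bp 59.5% and 53.1%, and from 600 to 1000 bp 63.7% and 54.7%. Isolated pairs were thus higher in each width class, and the intervals of both sets overlapped in each class. Such overlap does not show that the shares are alike, and no interval of the difference was computed within a class. By distance to the next DHS, the share was 63.7% at 50 to 100 kb (617 pairs), 63.1% at 100 to 200 kb (393 pairs), 54.1% at 200 to 500 kb (157 pairs, Wilson interval 46.3% to 61.7%) and 85.7% beyond 500 kb (21 pairs, 65.4% to 95.02%). No steady trend with distance was seen among the isolated pairs. Clustered compact pairs ranged from 55.3% to 56.8% over 4 classes of distance up to 50 kb.

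**Figure D3:**
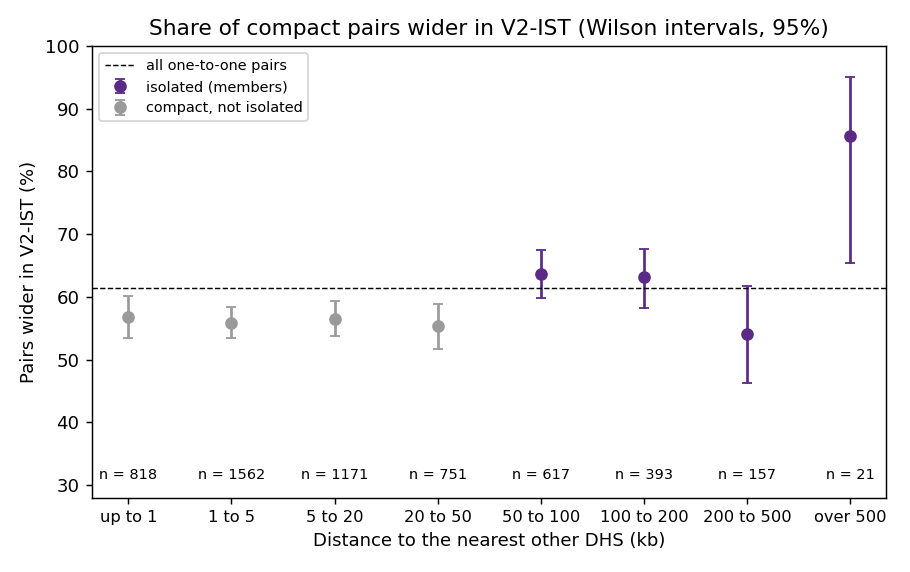
Share of compact pairs in which the V2-IST DHS is the wider (vertical axis, %, from 28%), by distance to the nearest other DHS (horizontal axis, kb), for isolated pairs (purple) and clustered compact pairs (grey), with Wilson intervals (95%) and numbers of pairs. The dashed line is the share of 61.4% over all one-to-one pairs. Isolated pairs lie at 63.7% and 63.1% up to 200 kb and scatter to either side beyond it, where pairs are few.

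Next, the arrangement of the boundaries was examined. The V2-IST DHS reached past the husk DHS on both sides in 410 isolated pairs (34.5%, Wilson interval 31.9% to 37.3%), and the husk DHS past the V2-IST DHS in 180 (15.2%, 13.2% to 17.3%). In clustered compact pairs these shares were 30.7% and 18.8%, and over all one-to-one pairs 37.4% and 18.1%. The first share of the isolated pairs was thus above that of clustered compact pairs and below that of all pairs. It exceeded that of clustered compact pairs by 3.83 points (Newcombe interval 0.834 to 6.9), but on only 5 of 10 chromosomes. The DHSs were staggered, in either direction, in 574 isolated pairs (48.3%, 45.5% to 51.2%), against 49.1% of clustered compact pairs and 42.2% of all one-to-one pairs. From clustered compact pairs this share differed by -0.754 points (Newcombe interval -3.96 to 2.46). V2-IST was shifted to the left in 269 of the isolated pairs (22.6%, 20.4% to 25.1%) and to the right in 305 (25.7%, 23.3% to 28.2%). For clustered compact pairs these shares were 23.8% and 25.3%, and over all one-to-one pairs 20.4% and 21.8%. Both directions are shares of the same pairs, so their separate intervals do not compare them, and whether 1 direction prevailed was not tested. In 24 pairs (2.02%) exactly 1 boundary was the same base in both tissues, against 1.49% of clustered compact pairs and 2.25% of all one-to-one pairs. The nearer boundary agreed to within 10 bp in 351 pairs (29.5%, 27.02% to 32.2%), against 27.1% of clustered compact pairs and 31.6% of all one-to-one pairs. The interval of the difference from clustered compact pairs, -0.444 to 5.38 points, included 0.

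Shifts of the boundaries are limited by the choice of pairs, through the limits on width, ratio and boundary difference, and are given as descriptions. The start moved by a median of 35 bp (33 to 38 bp) and the end by 36 bp (34 to 38 bp), and the midpoint by 29.5 bp (27.5 to 31.5 bp). The midpoint of each DHS lay inside the other in 1182 pairs (99.5%), 99.4% of clustered compact pairs and 88.9% of all one-to-one pairs. Of the sequence open in either tissue, a median of 79.7% was open in both (78.997% to 80.7%), close to the 80.3% of clustered compact pairs (79.9% to 80.8%). At least 70% of each DHS was covered by the other in 1023 pairs (86.1%, 84.03% to 87.96%), against 87.4% of clustered compact pairs and 66.02% of all one-to-one pairs. The common sequence had a median length of 337 bp (326 to 346 bp).

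A few isolated pairs overlapped only in part. The largest shift of the midpoint, 380 bp, was on chromosome 1, where the V2-IST DHS ran from 301133852 to 301134698 (847 bp) and the husk DHS from 301134332 to 301134978 (647 bp), with 32.6% of the sequence in both. On chromosome 4, a V2-IST DHS from 165712924 to 165713364 (441 bp) and a husk DHS from 165713133 to 165713765 (633 bp) were shifted by 305 bp. On chromosome 3, a V2-IST DHS from 206992148 to 206992689 (542 bp) and a husk DHS from 206992476 to 206992907 (432 bp) were shifted by 273 bp. In all 3 pairs the V2-IST DHS lay on the side of lower coordinates.

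The largest ratios stood at the limit of the rule. On chromosome 6, the V2-IST DHS from 134285903 to 134286341 measured 439 bp and its husk counterpart 293 bp. The next V2-IST-wider pairs were on chromosome 1 from 87719110 (320 bp in V2-IST against 214 bp in husk) and on chromosome 4 from 189197755 (414 bp in V2-IST against 277 bp in husk) and from 143867260 (363 bp in V2-IST against 243 bp in husk). In the last 2 of these, 1 boundary was common to within 7 and 1 bp, so the extension was one-sided. Towards husk, the pair on chromosome 2 from 30548425 to 30548829 measured 405 bp in V2-IST against 607 bp in husk, and husk extended by 87 and 115 bp. It was followed by pairs on chromosome 3 from 217678947 (440 bp in V2-IST against 657 bp in husk), chromosome 2 from 112622212 (331 bp in V2-IST against 494 bp in husk) and chromosome 1 from 59876683 (281 bp in V2-IST against 419 bp in husk). The extension in husk was one-sided in the last of these, with ends 9 bp apart.

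The distance from an isolated pair to the nearest other DHS had a median of 97.3 kb (93.5 to 102 kb), and to the nearest DHS on the opposite side 231 kb (217 to 242 kb). The stretch with no other DHS around a pair had a median of 339.6 kb (322 to 356 kb). Neighbours were more than 100 kb away for 571 pairs (48.1%), more than 200 kb for 178 (14.98%), more than 500 kb for 21 (1.77%) and more than 1000 kb for 3. In 3 pairs no DHS lay between the pair and a chromosome end. In clustered compact pairs the median distance was 3.84 kb (3.57 to 4.12 kb).

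The nearest other DHS was open in both tissues for 655 isolated pairs (55.1%, Wilson interval 52.3% to 57.9%), in V2-IST only for 339 (28.5%, 26.04% to 31.2%) and in husk only for 194 (16.3%, 14.3% to 18.5%). For clustered compact pairs the shares were 56.2%, 29.1% and 14.7%, and over all one-to-one pairs 57.1%, 28.7% and 14.2%. The interval of each difference between isolated and clustered compact pairs included 0.

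Most isolated pairs stood singly, but 340 (28.6%) belonged to 151 runs of 2 or more with no other DHS between them. The longest run held 6 pairs on chromosome 2 within 1.1 Mb, from 64518847 to 65616441. Its V2-IST and husk DHSs began with 324 bp in V2-IST against 243 bp in husk at 64518847, followed by 716 bp in V2-IST against 674 bp in husk at 64591553. The third, at 64945373, measured 261 bp in V2-IST against 351 bp in husk, and was the only pair of the run wider in husk by more than 3 bp. The others, at 65132442, 65278503 and 65616090, measured 344, 353 and 335 bp in V2-IST, against 347, 331 and 330 bp in husk. V2-IST was the wider in 4 of the 6 pairs.

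Isolated pairs were spread nearly evenly along the chromosomes, whereas clustered compact pairs were densest towards the ends. When each chromosome was divided into 10 equal parts, the part at each end together held 224 isolated pairs (18.9%, Wilson interval 16.7% to 21.2%) and 39.1% of clustered compact pairs (37.6% to 40.5%). The central 2 parts held 226 isolated pairs (19.02%, 16.9% to 21.4%) and 8.76% of clustered compact pairs (7.95% to 9.65%). The lowest share of isolated pairs was 7.07% in the fourth part (5.75% to 8.67%), and the highest was 11.6% in the second (9.92% to 13.6%). As a share of all compact pairs, isolated ones made up 9.72% in the last part and 44.1% in the fifth. A pair can be isolated only where DHSs are sparse, so this position follows at least in part from the choice, and it moved with the distance: relative to equal placement, the end parts held 1.18 times as many pairs with a limit of 25 kb, 0.943 times with 50 kb and 0.639 times with 100 kb.

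**Figure D4:**
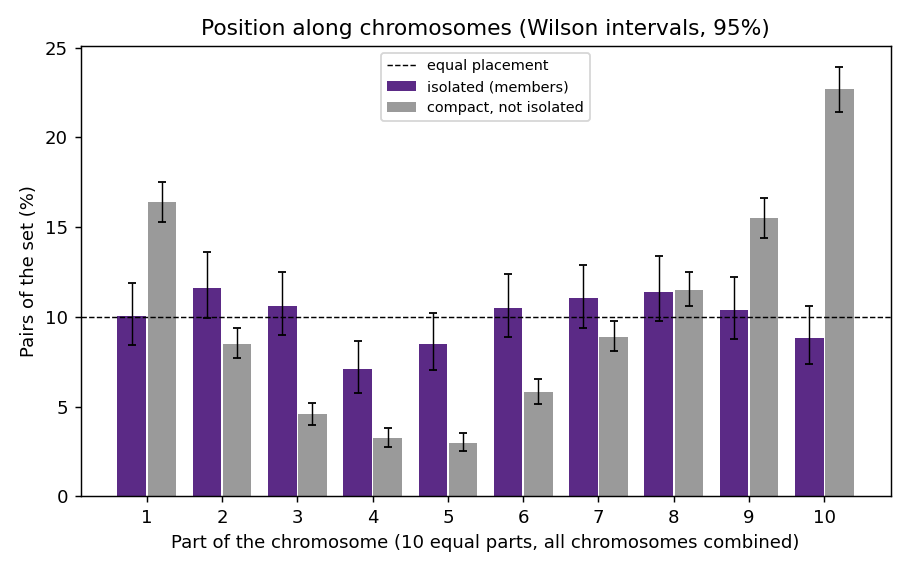
Share of pairs (vertical axis, %) in each of 10 equal parts of the chromosomes (horizontal axis), all chromosomes combined, for isolated pairs (purple) and clustered compact pairs (grey), with Wilson intervals (95%). Isolated pairs stay between 7.07% and 11.6%, near the dashed line of equal placement, while clustered compact pairs range from 2.98% in the fifth part to 22.7% in the last.

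By chromosome, isolated pairs numbered from 76 on chromosome 10 to 187 on chromosome 1, and made up from 8.72% of the one-to-one pairs on chromosome 9 (Wilson interval 7.07% to 10.7%) to 14.02% on chromosome 8 (11.99% to 16.3%). Chromosome 4 was next at 12.96% (11.1% to 15.1%). The intervals of these 2 chromosomes lay above the 10.3% over all chromosomes. Chromosome 8 also had the most isolated pairs for its length, 7.57 per 10 Mb against 5.65 over all chromosomes, with one-to-one pairs at 53.96 per 10 Mb against 55.1. Chromosome 4 had 5.79 isolated pairs per 10 Mb and the fewest one-to-one pairs, 44.7 per 10 Mb. The median width was larger in V2-IST than in husk on 8 chromosomes. On chromosome 8 it was 411 bp in V2-IST against 426 bp in husk, and on chromosome 10 it was 392 bp in V2-IST against 402 bp in husk.

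Finally, to ask whether an isolated open site is as likely to be open in both tissues as any other, DHSs of both lists were joined where they overlapped, and regions in which every DHS was under 1000 bp were divided by the 50 kb limit. Of 3846 isolated regions, 1904 held DHSs of both tissues (49.5%, Wilson interval 47.9% to 51.1%), 1250 held V2-IST DHSs only (32.5%) and 692 held husk DHSs only (17.99%). Of 13202 regions with a neighbour, 50.5% (49.7% to 51.4%), 32.8% and 16.6% did so. A region of 1 tissue only can hold peaks of the other tissue that its list did not keep. From peaks of single replicates, the study describes most DHSs as not tissue-specific. The difference in the share open in both tissues was -1.03 points (Newcombe interval -2.83 to 0.764), and this interval includes 0. Isolated regions had the higher share on 2 of 10 chromosomes. Without the width limit, however, the share was 53.2% in 4535 isolated regions (51.8% to 54.7%) and 56.3% in 16910 others (55.5% to 57.04%), a difference of -3.07 points (-4.7 to -1.44), with isolated regions lower on 9 of 10 chromosomes. With the width limit, for regions open in husk only the difference was 1.37 points (0.0201 to 2.76), and for V2-IST only -0.335 points (-2.004 to 1.36). Regions were also classed by their widest DHS. A region of both tissues takes the larger of at least 2 widths, so its share rises with the class in part by construction, and only isolated and other regions of 1 class are compared. With the widest DHS under 300 bp, 30.2% of isolated regions (27.6% to 32.8%) and 28.2% of others (26.7% to 29.9%) were open in both tissues. At 300 to 400 bp the shares were 51.5% and 48.03%, at 400 to 600 bp 61.3% and 58.5%, and from 600 to 1000 bp 62.3% and 62.7%. In every width class the intervals of isolated and other regions overlapped. This does not show equal shares, since no interval of the difference was computed within a class.

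**Figure D5:**
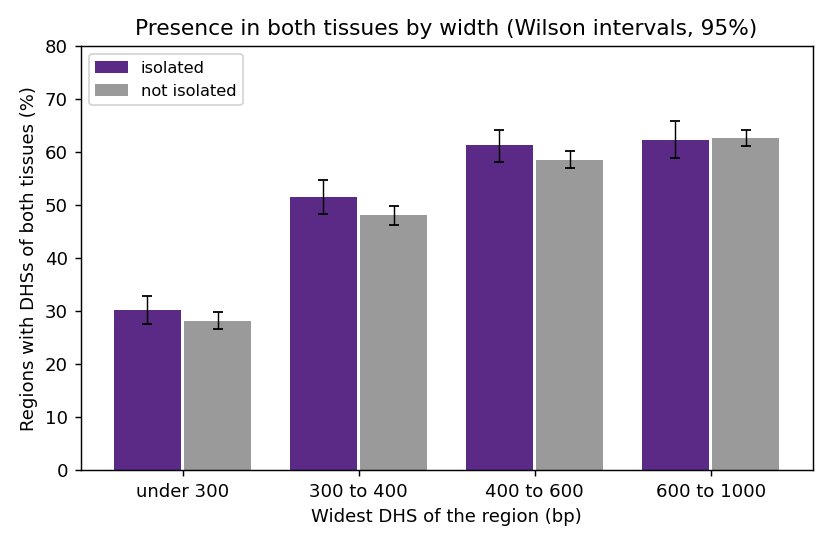
Share of regions with DHSs of both tissues (vertical axis, %) by the width of the widest DHS (horizontal axis, bp), for isolated regions (purple) and regions with another DHS within 50 kb (grey), with Wilson intervals (95%). The share is 30.2% and 28.2% in the narrowest class and 62.3% and 62.7% in the widest, and the bars of both kinds stand close together in each class.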

How the data were processed

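DNase-seq libraries of V2-IST and husk were analysed from the peak lists that the authors deposited. Per the methods of the study, reads were aligned with BWA, reads of low mapping quality were removed with SAMtools, and MACS2 called peaks in each biological replicate against naked DNA. Technical libraries were pooled, and peaks that largely overlapped between replicates were kept, so peaks of 1 replicate alone are absent. The labels name B73 RefGen_v3 and the methods AGPv4. Coordinates were taken as AGPv4, because ends lie past those of RefGen_v3 chromosomes and all enhancer candidates the study lists on AGPv4 overlap DHSs of their tissue.

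Each list has 3 columns and no score. Overlaps, distances, Wilson and Newcombe intervals and order-statistic intervals of medians (95%) were computed with Python 3.11.15, numpy 2.4.6, pandas 2.3.3 and scipy 1.17.1, and the code was tested on simulated data. Chromosome length was the largest end in either list. The pairs, the classes of width and distance, and the rules for naming pairs were chosen with earlier results of these lists known. Named were the most isolated pair per chromosome, extremes of ratio, width and midpoint shift, the longest run and the pairs at each limit. No p-value was computed.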

Additional observations from a re-analysis of the deposited data

How the results depend on the processing

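Of 80 values recomputed for 9 results, 53 stayed within the counting interval of the reported value (for the number of pairs, within 1.5 times), 27 moved and 0 reversed. The number of isolated pairs was 571 with no other DHS within 100 kb, 771 with a stricter limit on the width ratio and 448 with boundaries more than 100 bp apart, against 1188, and these limits are stricter by construction. The share wider in V2-IST stayed between 60.1% and 63.8% under all 11 alternatives. The median width difference was 22 bp with the stricter width ratio, 38 bp with a ratio under 2, 16 bp with no boundary limit, 66.5 bp with boundaries more than 100 bp apart and 30 bp without DHSs under 300 bp. Median widths were 371 bp in V2-IST against 349 bp in husk with a limit of 700 bp, 415 and 402 bp with 1500 bp, 377 and 362 bp with no boundary limit, 498 and 457 bp with boundaries more than 100 bp apart, and 479 and 459 bp without DHSs under 300 bp. V2-IST was at 407 bp with the stricter width ratio, and husk at 389 bp with a distance of 25 kb. In the end parts of chromosomes, pairs relative to equal placement were 1.18 with 25 kb and 0.639 with 100 kb. The share of isolated regions open in both tissues was 47.5% with a limit of 700 bp, 52.4% with 1500 bp, 44.7% and 34.6% when at least 50% and 70% of both DHSs had to overlap, and 42.3% without DHSs under 300 bp. Added after seeing the data, the difference of 6.49 points in the share wider in V2-IST was 5.64 after standardising clustered pairs to the width of isolated ones, 7.47 after standardising to their position, 7.37 and 6.47 against clustered pairs over 20 and 10 kb from another DHS, and 5.47 to 7.32 when 1 chromosome was left out. No paired analysis was possible because replicates were integrated into 1 list per tissue. Leaving out a replicate and a stricter peak threshold were not run, as the lists hold no values per replicate and no score.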

Other observations

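The share wider in V2-IST was also computed for one-to-one pairs of any width and ratio. It was 65.6% in 2343 isolated pairs (Wilson interval 63.7% to 67.5%) and 60.4% in 9241 pairs with another DHS within 50 kb (59.4% to 61.4%), a difference of 5.21 points (Newcombe interval 3.02 to 7.35). Among compact pairs, the share was also computed by the kind of nearest neighbour. It ranged from 50.9% to 59.1% in clustered pairs and from 60.8% to 63.2% in isolated ones, whose intervals were wider. With a husk-only DHS as the nearest neighbour, V2-IST was the wider in 60.8% of isolated pairs (53.8% to 67.4%) and 50.9% of clustered pairs (47.1% to 54.8%). With a V2-IST-only neighbour the shares were 62.5% (57.3% to 67.5%) and 59.1% (56.3% to 61.8%), and with a neighbour open in both tissues 63.2% (59.4% to 66.8%) and 55.96% (53.97% to 57.9%). Whether these shares differ between kinds of neighbour, or differ more in clustered than in isolated pairs, was not tested.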
